A study of Drosophila melanogaster with 8 samples.

Results

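The genes described here encode the proteins of the cytosolic ribosome in sorted embryonic macrophages of Drosophila melanogaster. Members were taken by gene name: every RpL, RpS and RpLP gene, with sta and Rack1, which gave 94 of the 17494 genes in the deposited tables. Of these, 40 belong to the small (40S) subunit, 51 to the large (60S) subunit, and 3 carry the name of a ribosomal protein with the ending -like but are related to nucleolar assembly factors known from yeast. Expression was measured by RNA-seq of polyA RNA with 50 base reads, in 4 CG9005 mutant libraries and 4 wild type (WT) libraries. All 8 came from stage 11 embryos kept at 29 °C, whose macrophages (hemocytes, the phagocytes of the embryo) carried a 3xMcherry label in both genotypes and were isolated by FACS. The genotype field is the same for both groups, so the groups rest on the sample titles. The sources used here name neither the CG9005 allele nor the promoter behind the 3xMcherry label. A separate developmental stage field runs from 15 to 18 over the mutant libraries and from 11 to 14 over the WT libraries, while the growth protocol names stage 11 for both genotypes.

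The ribosome joins a small subunit, which reads the mRNA, to a large subunit, which forms the peptide bonds. Each subunit holds a set of proteins, most of which are needed in equal numbers. In flies most of these proteins are encoded by a single gene, and loss of a single copy often gives the Minute phenotype of slow growth and short bristles. Some are encoded by a pair of paralogues, of which the second is often known for expression in the germline. In vertebrates the mRNAs of these proteins start with a run of pyrimidines and are regulated together at translation by TOR, and fly ribosomal protein genes also start transcription within a pyrimidine-rich element.

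CG9005 (chromosome 2R, 11619479 to 11640941, minus strand, BDGP6) held 75.04, 103, 93.999 and 84.3 TPM (transcripts per 1000000, a level corrected for transcript length) in the mutant libraries, against 72.9, 79.3, 114 and 84.5 TPM in the WT libraries. The groups overlapped, so the level of this mRNA did not distinguish the labelled genotypes, and the log2 difference was 0.03 with a 95% interval of −0.35 to 0.41. The libraries held 15930548 to 19145557 reads, recovered from TPM and exon length, and 8882 to 10593 genes above 0. Of 15 macrophage markers, srp, Pxn, crq, gcm, Sr-CI and drpr were present in every library, whereas eater was at 0 and Hml and NimC1 were under 1 TPM everywhere. The summed level of the 15 was 2051 to 2542 TPM in the mutant and 1762 to 2025 TPM in WT libraries. This sum includes Sr-CI, with a mean of 739 TPM in the mutant and 394 TPM in WT, so it does not describe the other markers. The scavenger receptor gene Sr-CI was the 1 marker called of the 11 tested, with 700.5, 771, 741 and 743 TPM in the mutant libraries, against 389.6, 423, 386 and 376 TPM in the WT libraries (log2 fold change 0.91, limma adjusted p = 0.000818). Of the 11, 5 were above and 6 below 0, with a median log2 fold change of −0.04. By limma, 3 of the 11 (27.3%) had an unadjusted p under 0.05. Among markers of other cells, the 6 neuronal genes summed to 59.4 to 77.4 TPM in the mutant and 45.2 to 81.7 TPM in WT, of which elav supplied 46.0 to 61.0 TPM in the mutant and 42.7 to 69.4 TPM in WT. The 4 neuronal genes tested were all above 0, with a median log2 fold change of 0.80. By limma 0 were called, and 2 of the 4 (50%), Appl and fne, had an unadjusted p under 0.05. Appl had 2.27 to 3.98 TPM in the mutant and 0.114 to 2.09 TPM in WT, without overlap. The 6 muscle genes summed to 112 to 184 TPM in the mutant and 104 to 147 TPM in WT. Of the 5 tested, 3 were above and 2 below 0, with a median log2 fold change of 0.08. The myosin light chain gene Mlc2 was the 1 called, higher in the mutant (limma adjusted p = 0.049). By limma, 2 of the 5 (40%) had an unadjusted p under 0.05. Of the glial genes tested, 2 were above and 1 below 0 (median 0.18). The 3 epidermal genes tested were below 0 (median −0.28), as were the 2 gut and fat body genes tested (median −0.45). In the glial, epidermal, and gut and fat body lists, 0 genes were called. Over all genes tested, limma called 1.67%, 12.1% had an unadjusted p under 0.05, and 7.77% had groups without overlap. The part of these other cells in the results was not tested. Nothing in the labels says that the 4 libraries of a group came from separate collections, so p-values measure only the spread between these samples.

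Ribosomal protein mRNAs made up about as much of the transcript pool as all other genes together. They held 50.0%, 48.8%, 50.2% and 50.7% of the summed TPM in the mutant libraries, against 54.7%, 48.7%, 50.0% and 48.6% in the WT libraries. All mutant values lay within the WT range, and WT replicate 1 was the highest of the 8. The means were 49.9% ± 0.819 in the mutant and 50.5% ± 2.88 in WT (SD, n = 4 each), a difference of −0.58 percentage points. Without WT replicate 1 the difference was 0.825 percentage points, so its sign rested on that library. TPM divides reads by length, and these mRNAs are short, with a median exon length of 909.5 bases against 1738 over protein-coding genes. As a share of recovered reads the same genes held 30.7% ± 0.727 in the mutant and 29.7% ± 2.49 in WT (SD, n = 4 each). In sorted bulk RNA, a change in the mix of cells and a change in RNA per cell cannot be told apart.

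**Figure D1:**
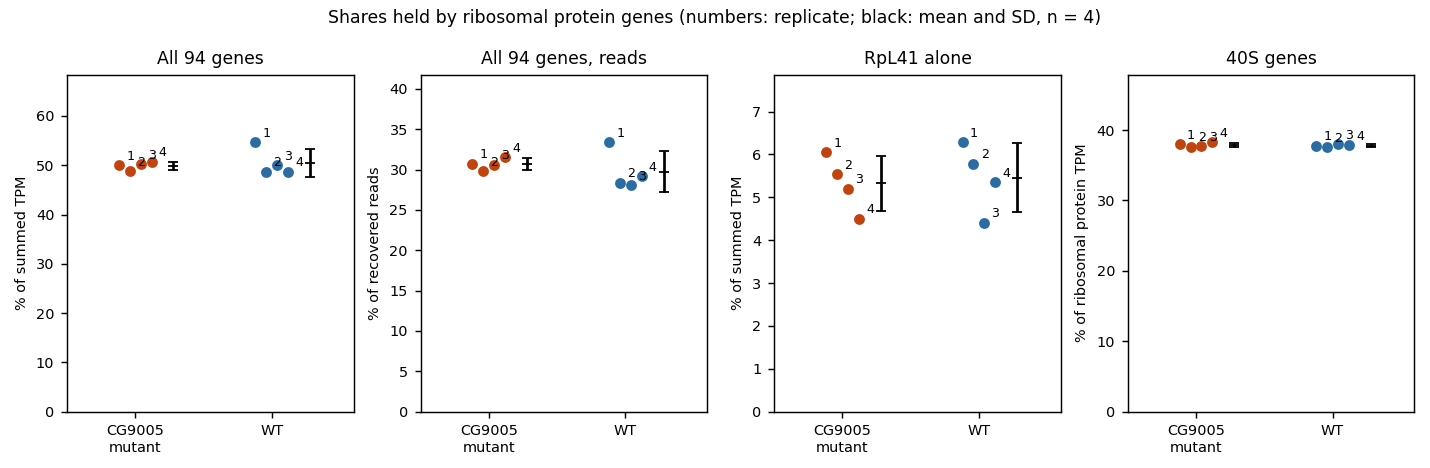
Share of the transcript pool held by ribosomal protein genes, as percent of summed TPM, percent of recovered reads, percent held by RpL41 alone, and the 40S part of the ribosomal protein TPM; points are libraries, black bars mean and SD (n = 4). In each panel the CG9005 mutant and WT points overlap, and WT replicate 1 has the highest total share at 54.7%.

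The sign of the difference also moved with the denominator. CR40469, a noncoding RNA gene, averaged 15319.7 TPM in the mutant and 23.7 TPM in WT, and without it the ribosomal protein share was 50.7% in the mutant and 50.5% in WT. MRE16, the noncoding RNA with the highest level, ranged from 26193 to 51000.1 TPM in the mutant and from 28364 to 37608 TPM in WT. Without MRE16 the shares were 51.9% in the mutant and 52.2% in WT, and over protein-coding genes alone they were 53.8% in the mutant and 53.3% in WT. Each of these differences was smaller than the SD of the WT libraries.

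Ribosomal protein genes filled 9 of the 10 highest places by mean TPM over the 8 libraries and 43 of the first 50. Of the 94 genes, 84 averaged at least 500 TPM, and the next, RpS15Ab, averaged 234 TPM. The 84 had a median of 4792 TPM, with quartiles of 3045 and 6799.8 TPM, a 2.23-fold span. The 35 small subunit genes among them had a median of 5149.6 TPM and the 48 large subunit genes a median of 4698 TPM. Across the 84 genes, TPM was lower for longer mRNAs, with a Spearman correlation of −0.56 between level and exon length. The recovered reads of the same genes had a Spearman correlation of 0.01 with exon length; exon length itself enters the TPM values.

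**Figure D2:**
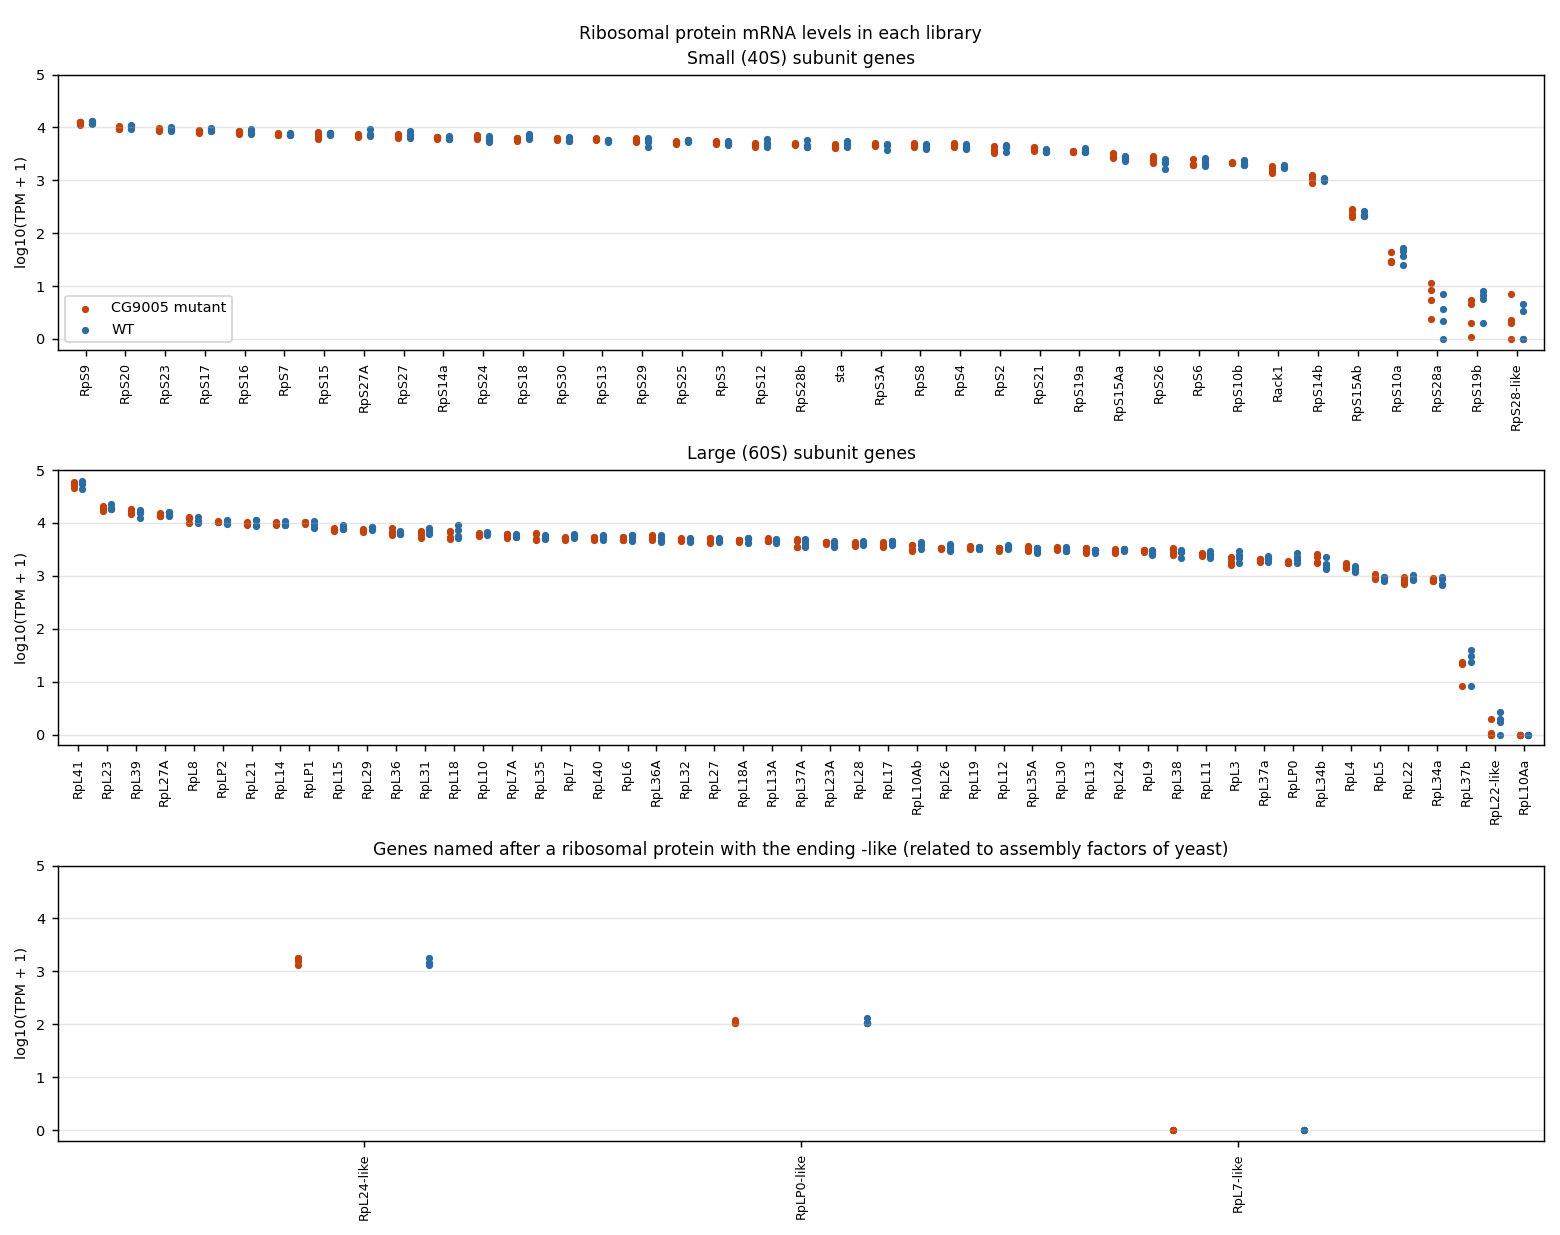
Level of 91 of the 94 genes in each library as log10(TPM + 1), ordered by mean level within the small subunit, the large subunit and the -like genes; CG9005 mutant points stand left of WT points. The genes with a mean of at least 500 TPM form a plateau that only RpL41 exceeds by far, and the second paralogues fall away at the right.

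In the large subunit, RpL41 stood alone. It encodes the smallest ribosomal protein, a peptide at the interface of the subunits (chromosome 2R, 24903416 to 24903935, minus strand). RpL41 had 60556, 55368, 52013 and 45041 TPM in the mutant libraries, against 62913, 57845, 44096 and 53498 TPM in the WT libraries. Its mean over all libraries, 53916 TPM, was 2.77 times that of RpL23 in second place and 11.3 times the median of the 84 genes. RpL41 alone accounted for 5.32% ± 0.650 of all TPM in the mutant and 5.46% ± 0.798 in WT (SD, n = 4 each). The groups overlapped throughout, and the lowest value of each group was mutant replicate 4 and WT replicate 3. RpL41 was also first by recovered reads, with a mean of 227262 reads, ahead of RpL8 with 174878 and RpS9 with 166431.

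RpL23, which contacts the small subunit, had 16618.5, 20874, 20235 and 18779 TPM in the mutant libraries, against 19295, 18676, 22894 and 18064 TPM in the WT libraries. RpL39, a small protein lining the exit tunnel of the nascent chain, averaged 16269 ± 1517 TPM in the mutant and 15394 ± 2053 TPM in WT (SD, n = 4 each). RpL27A, RpL8, RpLP2, RpL21 and RpL14 completed the large subunit genes among the 10 highest members, with means between 9687 TPM and 14407.5 TPM in the mutant, and between 9714 TPM and 15017 TPM in WT. RpL8 sits near the peptidyl transferase centre, and RpLP2 is an acidic protein of the stalk that recruits translation factors. None of these was called between the genotypes (limma adjusted p from 0.748 to 0.995). RpL32, a common reference gene for quantitative PCR, had 4576, 4800.0, 5078 and 5219 TPM in the mutant libraries, against 5206, 4362, 4932 and 4647 TPM in the WT libraries. Its log2 difference was 0.04, with a 95% interval of −0.16 to 0.24, and it ranked 48th among all genes.

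In the small subunit, RpS9 and RpS20 were the highest. RpS9, which lies at the mRNA entry of the subunit, had 12910.5, 12898, 10879 and 12753 TPM in the mutant libraries, against 13398, 11481, 13358 and 12228 TPM in the WT libraries. RpS20 averaged 9882 ± 607 TPM in the mutant and 10551 ± 740.4 TPM in WT (SD, n = 4 each). At the other end of the 84 genes, RpS14b and Rack1, a scaffold protein bound to the 40S head, were among the lowest small subunit members. RpL34a, RpL22 and RpL5, which binds the 5S rRNA, were the lowest large subunit members by TPM. RpL5 has the longest exon length of all members, 3835 bases. It held 32843 to 53936 recovered reads per library, against 4806 to 8670 for RpL34a. The lowest of the 84 was RpL34a, with a mean of 826 TPM.

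The other 10 genes, under 500 TPM, are all second members of pairs. RpL7-like and RpL10Aa were listed at 0 in all 8 libraries; for RpL10Aa a count of 0 allows up to 3 reads, or 0.263 to 0.353 TPM depending on the library. RpL7-like shares 98.8% of its exon length with CG34164 on the same strand, and how the authors counted reads in such overlaps is not given in the sources used here, so its 0 is uncertain. RpL22-like, known from the fly testis, stayed under 2 TPM in every library. These 3 genes fell below the minimum for testing, at least 1 TPM in at least 4 libraries, which left 91.

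For 13 of 14 pairs of a gene and its paralogue, the share of the pair's TPM held by the second gene is given here. Which gene of a pair counts as the second was set by hand, with earlier results of these data known. The order does not always follow the letters, as RpL34a is second to RpL34b. In each of these 13 the second gene held less than the first in every library, which in part reflects that order. Since second paralogues are often known from the germline, 10 germline markers were measured, which summed to 17.1 to 26.7 TPM in the mutant and 19.7 to 33.6 TPM in WT. The gene gcl held most of this, with 12.7 to 19.6 TPM in the mutant and 14.5 to 24.2 TPM in WT. Of the others, vas, nos, osk and piwi were under 1 TPM in every library, and aub, pgc, bam, ovo and zpg reached at most 4.78 TPM in any library.

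Some second paralogues contributed a sizeable part of their pair. RpL34b had 1813, 1777, 2266 and 2591 TPM in the mutant libraries, against 2268, 1703, 1534 and 1339 TPM in the WT libraries. RpL34a held 29.0% ± 4.01 of that pair in the mutant and 32.1% ± 1.81 in WT (SD, n = 4 each). Mutant replicates 3 and 4 had the lowest RpL34a shares of all 8 libraries, and mutant replicates 1 and 2 lay among the WT values. RpL24-like, whose yeast relative is an assembly factor of the large subunit rather than a part of the mature ribosome, held 35.5% ± 3.33 beside RpL24 in the mutant and 32.5% ± 2.70 in WT (SD, n = 4 each). RpS14b, the near-identical neighbour of RpS14a on chromosome X, held 14.7% ± 2.11 in the mutant and 14.2% ± 0.470 in WT (SD, n = 4 each). RpS14a ends at 7934677 and RpS14b starts at 7934898 on the same strand, with a gap of 220 bases between them. Reads from such copies may be divided between them, so both levels are uncertain.

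The other second genes of these 13 pairs were minor. RpS15Ab held 7.89% ± 0.892 of its pair in the mutant and 7.91% ± 0.759 in WT, and RpLP0-like 5.74% ± 0.514 in the mutant and 5.03% ± 1.39 in WT (SD, n = 4 each). RpS10a held 1.47% ± 0.353 of its pair in the mutant and 1.88% ± 0.700 in WT, and RpL37b 0.887% ± 0.325 in the mutant and 1.20% ± 0.750 in WT (SD, n = 4 each). RpL37b is the paralogue of RpL37a, a different gene from RpL37A. RpS19b, RpS28a, RpS28-like and RpL22-like stayed under 0.25% of their pair in every library. In none of the 13 pairs were the genotypes separated.

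Between the genotypes, no ribosomal protein gene passed the test. Of the 91 genes tested with limma on log2(TPM + 1), 0 were called at an adjusted p (Benjamini-Hochberg) under 0.05, beside 1.67% of all 7827 genes tested. At an unadjusted p under 0.05 the members again counted 0, beside 12.1% of all genes tested. The comparison table that the authors deposited held 92 members and called 0 of them, beside 0.579% of its 11058 genes, with 0 members at an unadjusted p under 0.05. Its unadjusted p-values were near 1 for most well-expressed members. They were 0.983 for RpL4 and 0.995 for RpLP0 by the authors' test, against 0.083 and 0.063 by limma. That table could therefore hardly call such genes, and its 0 is no separate support. On reads recovered from TPM, limma's voom also called 0 members, beside 90 of all 7801 genes tested. In that fit 3 of the 91 members had an unadjusted p under 0.05 (RpL4, RpL34b and RpS26), beside 11.1% of all genes tested. The groups did not overlap for 1 member, RpS13, or 1.10% of the members tested, beside 7.77% of all genes tested. These shares describe the members and are not tests of the list.

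The intervals limit the size of any difference in relative level (TPM) between the genotypes. The members themselves held 49.9% of the summed TPM in the mutant and 50.5% in WT. A change in mRNA per cell shared by all members is therefore not bounded by these intervals. Among the 84 genes at 500 TPM or more, fold changes lay between 0.831 and 1.24. Their 95% intervals reached from −0.59 to 0.69 on the log2 scale at the widest, and 79 of the 84 lay wholly within 0.5 log2 of 0. The standard error of the log2 fold change had a median of 0.10 for these genes and of 0.13 for the 149 other genes at that level, of which 2 were called. The SD of the log2 fold changes was 0.11 over the 84 genes and 0.79 over the 149. The 149 include the noncoding RNA CR40469, at a mean of 15319.7 TPM in the mutant and 23.7 TPM in WT. That gene widens the second SD, so the 2 values do not compare typical genes.

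**Figure D3:**
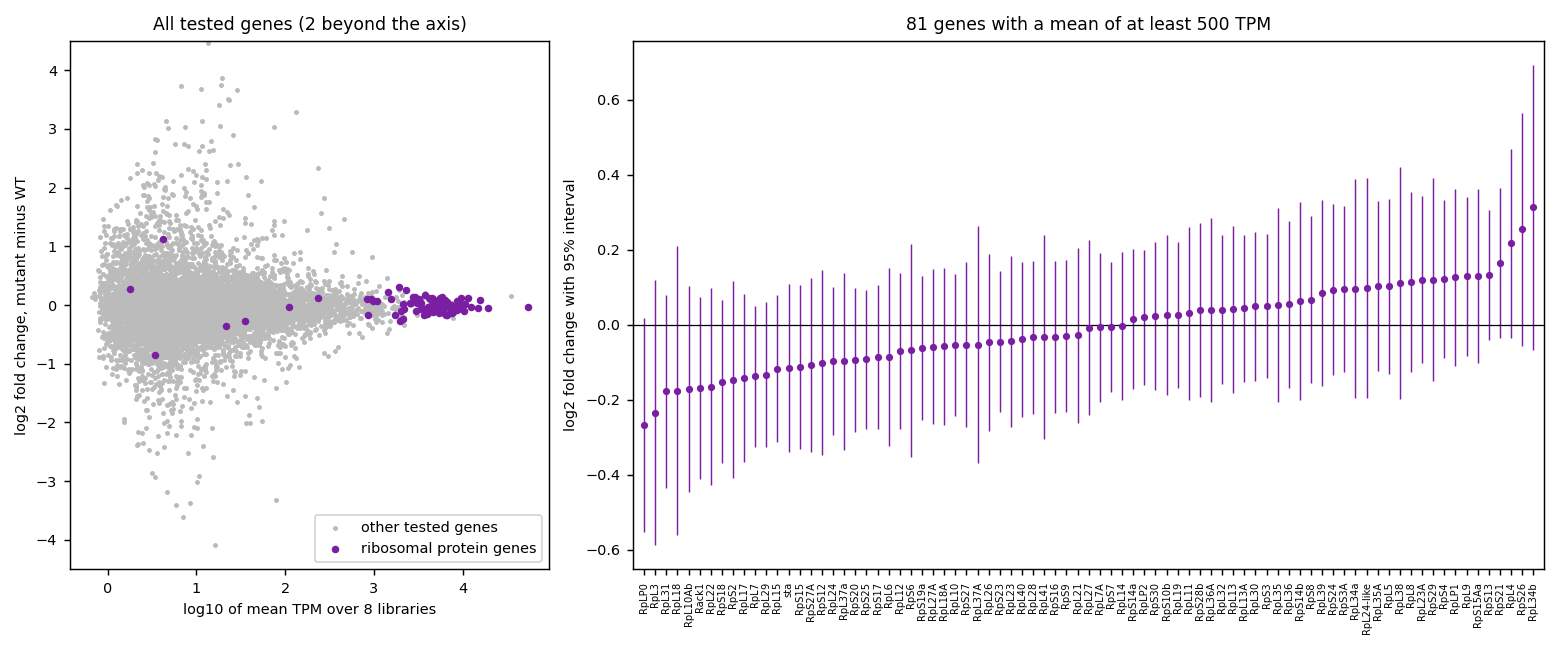
Left, log2 fold change (mutant minus WT) against log10 of mean TPM for all tested genes, with ribosomal protein genes in purple. Right, 81 of the 84 ribosomal protein genes with a mean of at least 500 TPM in order of fold change, with 95% intervals from limma; the fold changes run from −0.27 to 0.31, and each interval includes 0.

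By direction, 43 of the 91 genes were above 0 and 48 below, and the median log2 fold change was −0.01, beside −0.06 over all genes tested. The sign of the members' median followed the scaling, at 0.06 after median centring and −0.03 with TPM rescaled over the other genes. The small subunit had 21 genes above and 19 below 0 with a median of 0.02, and the large subunit 21 above and 28 below with a median of −0.03. In the authors' deposited table the members above 0 numbered 63 and those below 29, with a median of 0.06 beside 0.01 over all its genes. The members' median less that of all genes was 0.06 in the limma fit and 0.05 in the authors' deposited table, both from the same 8 libraries. Under alternatives to the fit it ran from 0.007 with quantile normalisation to 0.19 with the stage field as a covariate. Small subunit genes held 37.9% ± 0.295 of the ribosomal protein TPM in the mutant and 37.8% ± 0.162 in WT (SD, n = 4 each), so the balance of the subunits differed by less than the spread between libraries.

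On the lower side, the smallest p belonged to RpLP0, the base of the ribosomal stalk that carries RpLP1 and RpLP2. RpLP0 had 1712, 1800.3, 1766 and 1894 TPM in the mutant libraries, against 2242, 1775, 2749 and 1978 TPM in the WT libraries. WT replicate 3 was the highest and WT replicate 2 fell among the mutant libraries. The log2 fold change was −0.27 ± 0.13 (SE, n = 4 each), with a limma adjusted p of 0.446 and a 95% interval of −0.55 to 0.02. RpL7 (−0.14), RpS18 (−0.15), Rack1 (−0.17) and RpL29 (−0.13) followed by p as log2 fold changes, with limma adjusted p between 0.594 and 0.615. RpLP1 and RpLP2, the partners of RpLP0 in the stalk, had log2 fold changes of 0.13 and 0.02.

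On the higher side, the smallest p belonged to RpL4, part of which reaches into the exit tunnel. RpL4 had 1438, 1425, 1751 and 1654 TPM in the mutant libraries, against 1552, 1185, 1325 and 1331 TPM in the WT libraries. Its log2 fold change was 0.22 ± 0.11 (SE, n = 4 each; limma adjusted p = 0.494), and WT replicate 1 lay among the mutant values. RpL34b (0.31), RpS21 (0.16), RpS26 (0.25) and RpS28a (1.12) followed by p as log2 fold changes, with limma adjusted p between 0.521 and 0.526. RpS26, a protein at the mRNA exit channel, had 2122, 2433, 2882 and 2610.5 TPM in the mutant libraries, against 2132, 1629, 2483 and 2227 TPM in the WT libraries. The value for RpS28a rests on few reads, with 7.40, 10.4, 4.56 and 1.41 TPM in the mutant libraries, against 0, 2.66, 1.21 and 6.10 TPM in the WT libraries.

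RpS13 (chromosome 2L, 8363477 to 8364662, minus strand), a protein of the small subunit, was the member whose groups did not overlap. It had 5837, 6094, 6194 and 6173 TPM in the mutant libraries, against 5679, 5435, 5245 and 5803 TPM in the WT libraries. The lowest mutant value exceeded the highest WT value by less than the SD of either group. Its log2 fold change was 0.13 ± 0.08 (SE, n = 4 each), with a limma adjusted p of 0.559 and a 95% interval of −0.04 to 0.31.

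Within each genotype the 84 genes at 500 TPM or more varied little. Their coefficient of variation had a median of 7.26% in the mutant and 9.56% in WT, beside 10.2% in the mutant and 15.7% in WT for the 149 other genes at that level. Counting error alone gave 0.210% to 1.22%, so the spread was well above it. In the mutant the narrowest gene was RpS19a, at 1.34%, and the widest RpL34b, at 18.4%. In WT the widest was RpL18, at 25.8%. WT spread was the wider for 64 of the 84 genes, for 50 without WT replicate 1 and for 52 without WT replicate 3.

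The libraries differed in the make-up of the ribosomal protein pool as well as in its size. WT replicate 1 carried 75 of the 84 genes above their 8-library mean and had the highest value for 37 of them. WT replicate 3 differed by composition: the SD over genes of the log2 deviation of each gene's share of the pool was 0.19 there, against 0.10 to 0.15 in the other libraries. RpL18 had 5036, 5398, 6737 and 6969 TPM in the mutant libraries, against 7344, 5297, 9242 and 5769.7 TPM in the WT libraries. The highest value was that of WT replicate 3.

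The first principal axis of these deviations held 47.6% of their variance over the 84 genes. WT replicate 3 stood at one end of it and mutant replicate 1 at the other, so the axis ran within the genotypes and not between them. RpL18, RpL3, RpL10Ab, RpLP0, RpL24-like and RpS2 lay toward WT replicate 3. RpL38, RpL41, RpS29, RpL39 and RpS6 lay toward mutant replicate 1. RpS6 is the substrate of the S6 kinase, and RpL3 lies near the peptidyl transferase centre. Each end holds proteins of both subunits. The position of a gene on the axis had a Spearman correlation of 0.11 with exon length and of −0.06 with level, over 84 genes measured in the same libraries. WT replicate 3 was also the library with the fewest reads (15930548) and the most genes above 0 (10593); the part of depth in this axis was not tested.

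**Figure D4:**
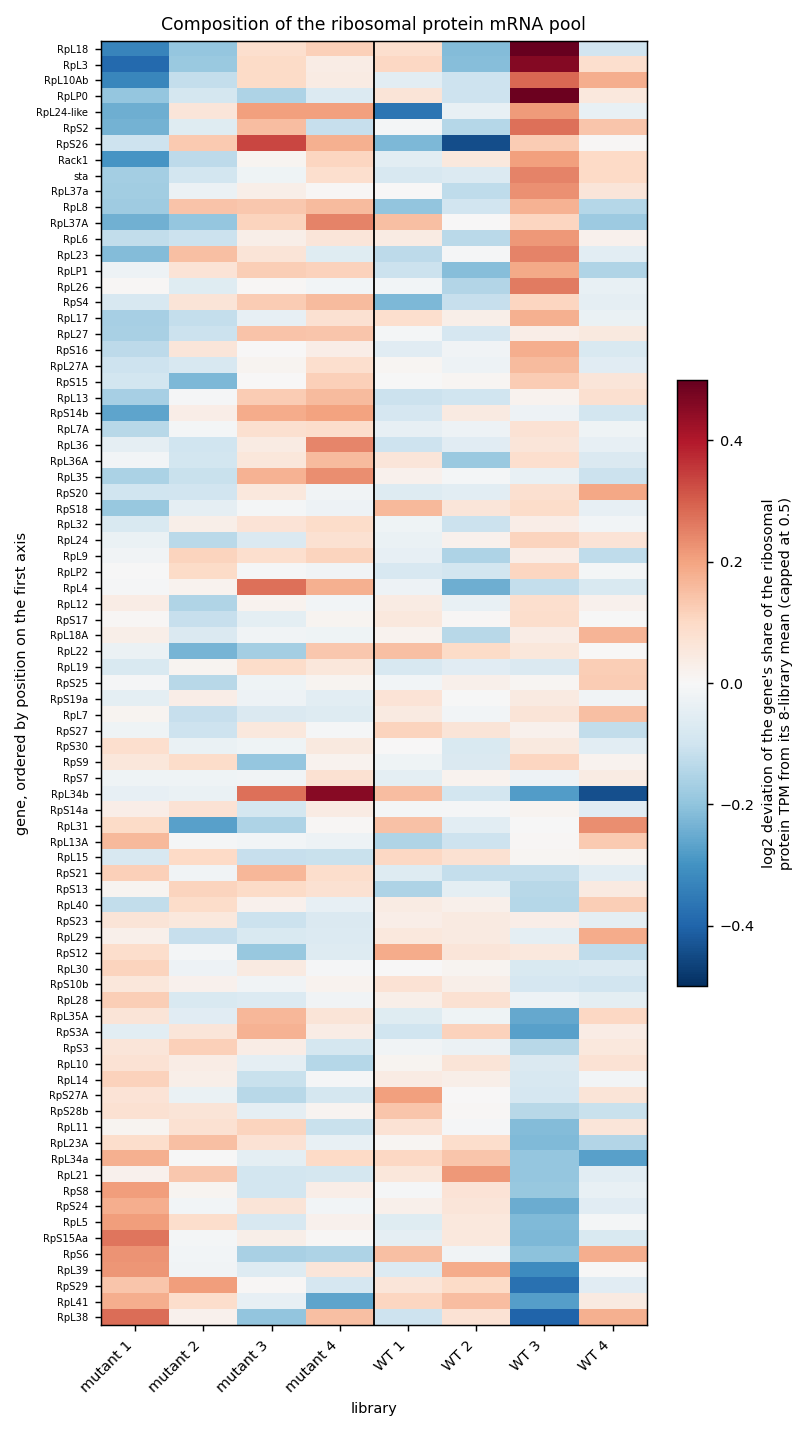
Log2 deviation of each gene's share of the ribosomal protein TPM from its 8-library mean, for 81 of the 84 genes (rows, ordered by the first axis) in 4 CG9005 mutant and 4 WT libraries (columns); red is above and blue below the mean, capped at 0.5. WT replicate 3 and mutant replicate 1 show opposite patterns, and no block of genes separates the genotypes.

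The genes were spread over the genome with no large departure from other protein-coding genes. Of the 94, 20 lie on 2L, 21 on 2R, 14 on 3L, 23 on 3R, 15 on X and 1 on chromosome 4. The largest gap was on 3L, with 14.9% of the members and 19.6% of protein-coding genes. Introns of 28 members host 69 small nucleolar RNA genes on the same strand, RNAs that guide the modification of rRNA. Exons of 12 members overlap another gene over more than 10% of their length. The largest overlaps after RpL7-like were those of RpS9 (50.3%, with the antisense CR45874), RpL22 (34.3%, with CR42491 on the same strand) and RpL23A (31.9%, with the snoRNA host Uhg7). Whether the counting used strand is not given in the sources used here, so the levels of these genes may include reads of their neighbours.

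Genes that work with the ribosome or regulate its synthesis were compared in the same fit, as a list of 24. Of these, 0 were called by limma, 11 were above and 13 below 0, and the median log2 fold change was −0.02; 3 had an unadjusted p under 0.05, or 12.5% of the list beside 12.1% of all genes tested, a share near the background. eEF1beta, the exchange factor that recharges the elongation factor eEF1alpha, had 1944, 1936, 2220.3 and 1976 TPM in the mutant libraries, against 2320.3, 2284, 2307 and 2429.9 TPM in the WT libraries. The groups did not overlap, but with a log2 fold change of −0.21 it did not pass (limma adjusted p = 0.355). The other 2 were pAbp, the poly(A) binding protein gene (log2 fold change 0.26, limma adjusted p = 0.357), and Irbp18 (0.54, limma adjusted p = 0.385), whose protein pairs with Xrp1 in the response of flies to Minute mutations. Xrp1 itself had a log2 fold change of −0.08, with a 95% interval of −0.86 to 0.70.

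Myc, a driver of ribosome synthesis in flies, had 26.7, 24.4, 20.1 and 23.1 TPM in the mutant libraries, against 29.4, 28.7, 49.6 and 27.9 TPM in the WT libraries. All 4 mutant values lay below all WT values, and the log2 fold change of −0.47 was not called (limma adjusted p = 0.420). M1BP, a transcription factor at ribosomal protein promoters in flies, had 29.6, 26.4, 29.5 and 26.2 TPM in the mutant libraries, against 30.1, 42.4, 31.2 and 38.8 TPM in the WT libraries. Its groups did not overlap either, and its log2 fold change was −0.33 (limma adjusted p = 0.5004). Among all genes tested, 7.77% had groups without overlap. Thor, the fly 4E-BP that holds back translation under TOR, had a log2 fold change of 0.52, with a 95% interval of −0.11 to 1.15. The other regulators listed lay on both sides of 0. Dref (0.43), Max (0.13), Mnt (0.12), Tor (0.10), S6k (0.04) and Trf2 (0.002) were above 0 as log2 fold changes. Rheb (−0.32), raptor (−0.14) and larp (−0.03) were below 0.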

How the data were processed

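RNA from FACS-sorted macrophages was sequenced in 4 CG9005 mutant and 4 WT libraries. The authors deposited TPM per library over 17494 genes, and a comparison table with a log2 fold change, p-value and adjusted p-value for 11058 genes, per the file headers. The submitters' processing notes name STAR (2.5.1b), HTSeq (0.5.4p3), R (3.4.4), limma, edgeR and the genome build BDGP6, with no role for any of them. TPM multiplied by exon length (Ensembl annotation of BDGP6, 17409 of 17494 identifiers) recovered reads that were whole within 0.05 for 98.8% to 99.1% of low values. Depth was 15930548 to 19145557 reads.

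A count test was foreseen had counts been given; the values were TPM, so limma 3.58.1 in R 4.3.3 was fitted to log2(TPM + 1) on genotype alone with an intensity trend. A gene was tested if 4 or more libraries reached 1 TPM, p-values were adjusted by Benjamini-Hochberg over all tested genes, and calls needed an adjusted value under 0.05. Differences run mutant minus WT and are understated for low genes. The fit was tested on simulated data. Alternatives were other filters, pseudocounts, normalisations and weights, voom on recovered reads, a stage covariate, a replicate block and each library left out. Named were CG9005, members whose groups did not overlap, the 5 per direction with the smallest p, the 10 highest and lowest, both genes of pairs and RpL32, and 4 related genes with the smallest p. Other genes were named after their values were seen. Members, lists and rules were chosen with earlier results of these data known. Counting errors cover counting only. Values of 3 members, and 1 paralogue pair, are not reported here; counts over genes include those members, and statements on pairs leave that pair out.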

Additional observations from a re-analysis of the deposited data

Results flagged for a closer look

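In 9 of the 118 groups of 4 values examined, 1 library lay far from the other 3. The groups were those of the named members above 0, shares of the pool and paralogue shares, so not all members were examined. Many of these members were named for their values in the same data. The threshold flags about 1 group in 20 of independent normal values, but the TPM and pair share of a gene are not independent. Among well-expressed genes, RpS9 was low in mutant replicate 3 at 10879 TPM, against 12753 to 12910.5 TPM in the other mutant libraries. RpLP2 was high in mutant replicate 2 at 10951.5 TPM, and the other mutant libraries lay between 10483 and 10523 TPM. Among second paralogues, RpLP0-like was high in WT replicate 2 at 133 TPM, above 104 to 106 TPM in the other WT libraries. RpS15Ab was high in the same library at 261 TPM, with 206 to 216 TPM in the others. RpS10a was high in mutant replicate 4 at 44.1 TPM, against 27.4 to 28.6 TPM in the other mutant libraries, and its share beside RpS10b was 2.00% there. RpL37b was low in mutant replicate 1 at 7.35 TPM, against 20.4 to 22.0 TPM in the other mutant libraries. RpL22-like was high in mutant replicate 4 at 0.929 TPM, or 0.0994% of its pair, and at most 0.0629 TPM in the other mutant libraries. None of these genes was called between the genotypes.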

How the results depend on the processing

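Under all 21 alternatives to the fit, 0 of the 88 to 92 members tested were called, and the smallest adjusted p of a member was 0.212, with quantile normalisation. Up to 6 members had an unadjusted p under 0.05, with the stage field as a covariate, beside 9.94% of all genes tested in that fit. The median log2 fold change of the members ran from −0.03 to 0.06. Of 42 named genes tested, 23 changed sign under some alternative and none became a call. The count over all genes, 131, was 76 with no filter, 75 with a minimum of 10 TPM, 52 with the replicate block, 9 with the stage field as a covariate, and 71 to 110 with 1 library left out. Same-numbered libraries of the genotypes did not deviate together over all genes tested (correlations −0.15 to 0.08). Over the members alone the correlations were −0.41, 0.27, 0.21 and −0.32 for replicates 1 to 4. Such correlations cannot show whether the replicate numbers pair the samples. With the block 0 members were called. The difference in ribosomal protein share, −0.58 percentage points, was 0.525 over protein-coding genes, 0.196 without CR40469 and 0.918 by recovered reads, and −1.20 to 0.825 with 1 library left out. The rescaling without CR40469, the shares without CR40469 or RpL41, and the 40S shares by reads or without RpL41 were chosen after seeing the data; those 40S shares differed by 0.304 and 0.0649 percentage points. Depth did not limit the well-expressed members, whose counting error was at most 1.22%, whereas RpL22-like, RpS28-like, RpS19b and RpS28a held at most 63 reads in a library.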
